A study of Mus musculus with 8 samples.

Results

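The 46 genes described here encode proteins that drive or carry out the cell cycle: cyclins and their kinases, E2F transcription factors, the replication licensing machinery, enzymes that make DNA precursors, mitotic kinases, kinesins and kinetochore proteins. They were chosen by gene symbol and are 46 of the 55335 genes in the deposited count table. RNA was sequenced from CD8+ T cells that infiltrated tumors (TILs) and were sorted as CD44+PD-1+, from mice carrying MC38, a mouse colon carcinoma line, in 4 wildtype (WT) and 4 LSD1-deficient (KO) samples. LSD1, encoded by *Kdm1a*, is a histone demethylase. WT mice were Lsd1f/f and KO mice were Cd4-Cre+Lsd1f/f on the C57BL/6 strain, so that both groups carried the floxed allele and only KO mice carried the Cre transgene, which acts in developing T cells of both the CD4 and CD8 lineages. Mice were 6 to 10 weeks old, and the labels name no treatment. A WT sample pooled TILs of 2 mice and a KO sample held those of 1 mouse, and 10000 to 20000 cells were sorted for each. The sample protocol gives day 18 after implantation for the harvest, whereas the series design text gives 14 days. Names follow the table, with WT samples as S1 to S4 and KO samples as S5 to S8, after the numbers of the columns in the table, which cannot be matched to replicate numbers.

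A T cell that meets its antigen leaves G1 when D-type cyclins with CDK4 or CDK6 inactivate the RB protein and release E2F factors, which switch on the genes for DNA synthesis. The MCM2-7 helicase is loaded on origins in G1 and unwinds DNA in S phase. In G2 and M, the MuvB complex with MYBL2 and FOXM1 turns on genes for mitosis, many of them through a CHR element. Messenger RNAs of these genes are abundant in dividing cells and scarce in resting ones, and CD8+ TILs hold dividing and non-dividing cells side by side. In sorted bulk samples, fewer dividing cells and less RNA per dividing cell cannot be told apart.

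Totals ran from 11657807 to 30295406 counts per sample. Between samples of one group, the median chi-square per gene was 4.92 to 8.46 over 12 pairs, against 0.455 for sampling noise alone. All 46 genes passed the filter on low counts, with 78 to 17809 counts per sample. The CD8 T cell markers summed to 6093 to 6516 CPM in WT and 5698 to 6348 CPM in KO, where CPM is the count relative to the library total after TMM scaling. Within that list *Cd44*, a marker of the sort, was called higher in KO, with means of 432 and 784 CPM, and *Cd8b1* (345 and 263 CPM) and *Cd247* (126 and 99.8 CPM) were lower at an adjusted p under 0.05. *Kdm1a* RNA was at 44.5, 47.1, 42.6 and 44.8 CPM in WT and 25.2, 30.5, 32.0 and 34.7 CPM in KO, with no overlap and a log2 fold change of -0.55 ± 0.14 (SE, edgeR's quasi-likelihood test with Benjamini-Hochberg adjustment, adjusted p = 0.0163). Total counts on *Kdm1a* include exons outside the deleted part, so this value is not a measure of deletion. Of 17 macrophage and antigen-presenting cell markers, 16 were tested and 13 were lower in KO. They summed to 493, 604, 1517 and 846 CPM in WT and 333, 343, 240.1 and 239 CPM in KO, so that S3 stood highest. The carcinoma cell markers *Krt8* and *Krt19* had no count in any sample, and *Epcam* and *Krt18* averaged under 1 CPM in both groups. *Cdh1*, of the same list, averaged 19.4 CPM in WT and 24.6 CPM in KO, and the list summed to 13.5 to 30.0 CPM in WT and 20.99 to 32.5 CPM in KO. Of 5 CD4 T cell markers, 2 were called higher in KO, and the list summed to 44.2 to 59.9 CPM in WT and 129 to 163 CPM in KO. Most of that came from *Zbtb7b* (means of 44.5 and 101 CPM), called higher with *Cd40lg* (2.28 and 12.3 CPM). *Cd4* (4.53 and 14.3 CPM) and *Izumo1r* (3.27 and 7.58 CPM) were higher at an adjusted p under 0.05 only. *Foxp3* (1.10 and 2.41 CPM) did not pass either threshold. NK cell markers summed to 94.4 to 125 CPM in WT and 67.5 to 81.2 CPM in KO. Most of that came from *Eomes* (means of 54.8 and 30.0 CPM) and *Klre1* (48.6 and 38.2 CPM). At an adjusted p under 0.05 (edgeR), *Eomes* and *Tyrobp* (5.46 and 0.887 CPM) were lower in KO and *Klrb1c* (0.458 and 3.85 CPM) was higher. *Ncr1* averaged under 1 CPM in both groups. Erythroid markers summed to 4.95 to 13.4 CPM in WT and 0 to 0.917 CPM in KO. Fibroblast and endothelial markers summed to 21.3 to 32.5 CPM in WT and 57.9 to 78.6 CPM in KO, mostly from *Pecam1*, which was called higher (means of 22.9 and 63.5 CPM, adjusted p = 5.23e-06, edgeR). Whether a marker list reflects the presence of the cell type it is named for was not tested. The part of any such cells in the values that follow was not tested, and leaving out single samples does not test it.

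Few of the cell cycle genes passed a test between WT and KO TILs. When a call needed more than a 1.5-fold difference and an adjusted p below 0.01 over 15378 genes tested (edgeR's quasi-likelihood test), none of the 46 was higher in KO, where the background was 2.91% of all genes tested, and 1 was lower, *Tk1*, where the background was 1.99%. At an adjusted p under 0.05 with no limit on the fold, 1 was higher (*E2f2*) and 4 were lower (*Tk1*, *Cenpa*, *Mcm2* and *Mcm4*), against 6.31% and 4.98% of all genes tested. At an unadjusted p under 0.05 the count was 12 of 46, or 26.1%, beside 24.5% of all genes tested. The median log2 fold change of the 46 genes was -0.11, with a range from -0.87 to 0.45, whereas the median over all genes tested was -0.01. Of the 46 fold changes, 33 (71.7%) lay below 0, beside 51.4% of all genes tested, and 44 were smaller than 1.5-fold. The median came to -0.03 without S4, the WT sample with the highest levels, and to -0.20 without S3, and 27 to 37 genes lay below 0 when single samples were left out. The plot of fold changes by role shows the wide overlap of the estimates with 0 and the place of *Tk1* outside the rest.

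**Figure D1:**
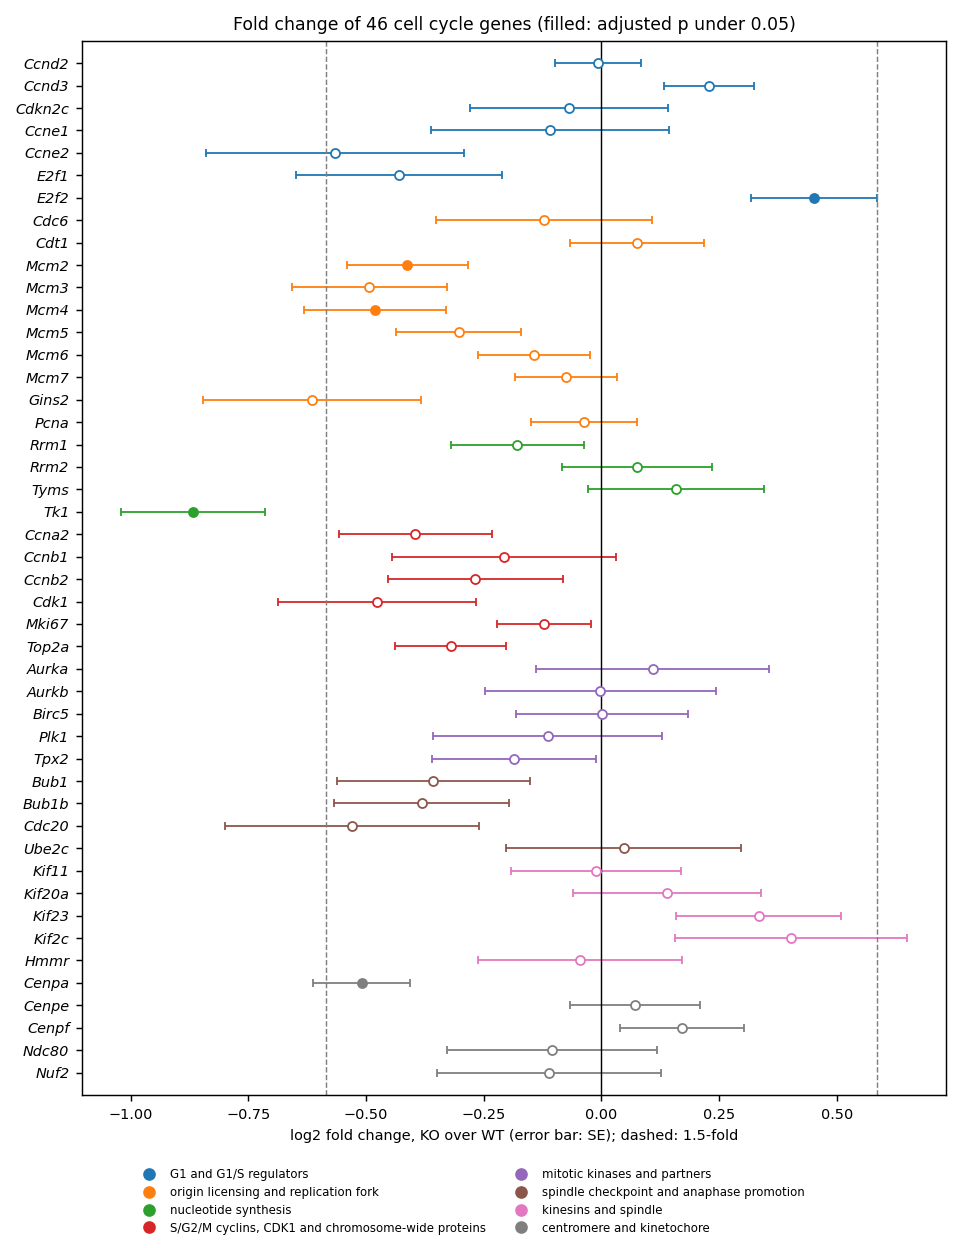
Log2 fold change (KO over WT) of each of the 46 cell cycle genes, grouped and colored by role, with the SE as error bars, dashed lines at 1.5-fold and filled points for an adjusted p under 0.05. *Tk1* lies farthest to the left at -0.87 and *E2f2* farthest to the right at 0.45, and 44 of the 46 points lie between the dashed lines.

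The promoter windows of *Tk1*, *Cenpa*, *Mcm2*, *Mcm3* and *E2f2* are given here. CCAAT boxes, the CHR and E2F sites, which the gene list did not use, were searched for in them. *Mcm3* did not pass an adjusted p under 0.05, and *Mcm4*, which did, had no window. Each window holds 250 bases before and 50 bases after a transcription start of RefSeq on GRCm38.p6, written 5′ to 3′ on the strand of the gene. Capitals mark the CCAAT box (CCAAT), the CHR (TTTGAA) and E2F sites (TTTCCCGC, TTTCGCGC or TTTGGCGC), each on either strand. None of these letters overlapped another motif in the windows shown, and the *Tk1* window held none of them.
*Tk1*, chr11:117825965-117826264, reverse strand: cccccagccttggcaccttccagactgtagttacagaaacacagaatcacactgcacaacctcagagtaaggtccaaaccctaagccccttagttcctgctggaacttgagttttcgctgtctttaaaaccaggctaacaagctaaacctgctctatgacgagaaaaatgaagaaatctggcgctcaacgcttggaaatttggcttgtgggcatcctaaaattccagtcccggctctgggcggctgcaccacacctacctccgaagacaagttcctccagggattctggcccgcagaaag
*Cenpa*, chr5:30666636-30666935, forward strand: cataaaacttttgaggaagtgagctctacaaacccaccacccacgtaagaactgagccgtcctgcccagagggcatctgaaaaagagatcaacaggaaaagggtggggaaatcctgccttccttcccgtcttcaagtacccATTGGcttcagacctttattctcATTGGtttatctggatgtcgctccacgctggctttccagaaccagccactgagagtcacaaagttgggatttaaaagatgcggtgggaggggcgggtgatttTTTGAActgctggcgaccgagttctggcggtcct
*Mcm2*, chr6:88898731-88899030, reverse strand: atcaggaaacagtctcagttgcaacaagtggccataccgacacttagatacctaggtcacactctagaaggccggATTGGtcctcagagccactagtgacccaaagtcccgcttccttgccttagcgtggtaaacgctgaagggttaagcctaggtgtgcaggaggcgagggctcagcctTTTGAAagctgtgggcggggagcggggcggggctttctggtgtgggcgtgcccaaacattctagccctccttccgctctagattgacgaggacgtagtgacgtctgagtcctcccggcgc
*Mcm3*, chr1:20820263-20820562, reverse strand: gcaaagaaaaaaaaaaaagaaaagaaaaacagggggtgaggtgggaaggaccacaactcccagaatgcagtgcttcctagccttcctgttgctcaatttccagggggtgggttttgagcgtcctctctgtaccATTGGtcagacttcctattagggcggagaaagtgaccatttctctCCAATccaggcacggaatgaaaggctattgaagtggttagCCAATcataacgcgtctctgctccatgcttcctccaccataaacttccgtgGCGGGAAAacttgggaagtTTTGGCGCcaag
*E2f2*, chr4:136172024-136172323, forward strand: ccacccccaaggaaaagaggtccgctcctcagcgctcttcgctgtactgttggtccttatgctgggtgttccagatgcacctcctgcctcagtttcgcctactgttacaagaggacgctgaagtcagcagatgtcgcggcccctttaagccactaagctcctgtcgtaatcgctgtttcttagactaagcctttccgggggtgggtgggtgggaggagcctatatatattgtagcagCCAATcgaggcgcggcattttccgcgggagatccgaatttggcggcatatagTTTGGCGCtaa
*Cenpa* has 2 CCAAT boxes before its start and a CHR after it, *Mcm2* has 1 of each, *Mcm3* has 3 CCAAT boxes and 2 E2F sites, and this start of *E2f2* has 1 CCAAT box and 1 E2F site. A further start of *E2f2* in the table, inside the gene, has CCAAT boxes and a CHR and is not shown.

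Windows were found for 38 of the 46 genes, of which 4 had 2 windows. A CCAAT box was in the window of 28 of the 38 genes (73.7%), beside 41.1% of 27025 genes with a window. The CHR was in 18 of 38 (47.4%), beside 20.2%, and an E2F site was in 8 of 38 (21.1%), beside 2.12%. The genes with an E2F site were *Cdc6*, *Cdk1*, *Cdt1*, *E2f2*, *Mcm3*, *Mcm5*, *Mcm6* and *Mcm7*. Their median log2 fold change was -0.13, and that of the 30 without one was -0.11. The 18 genes with a CHR had a median of -0.11, and so did the 20 without. Fold changes had nearly the same median with and without a match to either motif in these windows. A match to these letters is a description of the window and not evidence of binding. The lack of an exact match in so short a window does not show the lack of a site. This split thus cannot separate genes that use these sites from genes that do not.

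Among the G1 and G1/S regulators, *E2f2* was the one gene that rose in KO at an adjusted p under 0.05. *E2f2* (ENSMUSG00000018983.9, GRCm38 chr4:136172394-136196057) encodes an activator E2F factor. Its level was 39.2, 38.7, 40.3 and 46.5 CPM in S1 to S4 and 46.1, 58.7, 56.4 and 63.7 CPM in S5 to S8. S5 was just under the highest WT sample, S4, so the groups overlapped by these 2 samples. The level was 41.2 ± 3.61 CPM in the WT samples and 56.2 ± 7.39 CPM in the KO samples (SD, n = 4 each), a fold of 1.37 with a 95% interval of 1.12 to 1.66 (adjusted p = 0.0382, edgeR). The adjusted p was above 0.05 when S1, S2, S3, S6, S7 or S8 was left out, reaching 0.113 without S2, and it was 0.068 with library size as the only scaling. *E2f1*, another activator E2F, had a log2 fold change of -0.43 ± 0.22 (SE), opposite in sign to *E2f2*, with an adjusted p of 0.242 (edgeR).

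*Ccnd3*, which encodes cyclin D3, was at 165, 188, 159.7 and 187 CPM in WT and at 194, 207, 200.1 and 219 CPM in KO. It was the one gene of the 46 with all 4 KO samples above all 4 WT samples, a pattern held by 8.99% of all genes tested. The fold was 1.17 with a 95% interval of 1.02 to 1.35, and the adjusted p was 0.144 (edgeR). *Ccnd2*, cyclin D2, had the most counts of the regulators and was at 566, 629.8, 537 and 606 CPM in WT and 524, 586, 591 and 625 CPM in KO. Its groups overlapped throughout, and the 95% interval of its fold ran from 0.871 to 1.14. *Cdkn2c*, the CDK inhibitor p18, and the E-type cyclins *Ccne1* and *Ccne2* had log2 fold changes of -0.07, -0.11 and -0.56, and none of them passed either threshold. *Ccne2* was low, at 13.8 ± 3.79 CPM in the WT samples and 9.31 ± 3.2 CPM in the KO samples (SD, n = 4 each), and opposite-strand *Ints8*, with 6039 counts over the 8 samples against 1395, overlaps its exons.

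The origin licensing and replication fork genes had a median log2 fold change of -0.22, and they were not the lowest role. The median was -0.29 for the S/G2/M cyclins, CDK1 and chromosome-wide proteins and -0.37 for the spindle checkpoint genes. It was 0.14 for the kinesins and between -0.10 and -0.003 for the remaining roles. Of the 10 origin licensing and replication fork genes, 9 had a log2 fold change below 0, beside 51.4% of all genes tested. At an adjusted p under 0.05, 2 fell, beside 4.98% of all genes tested. None passed the stricter rule, by which 1.99% of all genes tested were lower. Summed over the 6 subunits of the MCM2-7 helicase, the level was 612, 662, 586 and 792 CPM in WT and 444, 594, 512 and 577 CPM in KO. S6 lay above the lowest WT sample, S3, so the sums overlapped, with means of 663 ± 91.5 CPM (SD, n = 4) and 532 ± 68.1 CPM (SD, n = 4). The highest WT sum was that of S4 (792 CPM) and the lowest KO sum that of S5 (444 CPM). The remaining sums were 586 to 662 CPM in WT and 512 to 594 CPM in KO.

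*Mcm2* (ENSMUSG00000002870.8, chr6:88883474-88898780) was at 107, 123, 99.8 and 143 CPM in WT and 76.8, 97.0, 81.9 and 99.8 CPM in KO. The highest KO sample and the lowest WT sample were nearly level, and the groups did not overlap. The log2 fold change was -0.41 ± 0.13 (SE, adjusted p = 0.0476, edgeR). *Mcm4* (ENSMUSG00000022673.5, chr16:15623897-15637400) was at 115, 132, 137 and 153 CPM in WT and 63.1, 108, 101 and 112 CPM in KO. S5 stood far below the other KO samples and all 4 KO samples lay below the WT samples, with a log2 fold change of -0.48 ± 0.15 (SE, adjusted p = 0.0495, edgeR).

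Both values stood at the edge of the threshold. The adjusted p of *Mcm2* was above 0.05 without S2, S4, S5, S6 or S7 and with GC content offsets, and that of *Mcm4* without S2, S3, S4, S5, S6 or S7, with the highest values, 0.177 and 0.157, without S4. *Mcm3* had a fold change of like size (-0.49 ± 0.17, SE) and an adjusted p of 0.0655 (edgeR), which was under 0.05 without a filter (0.00232), with DESeq2 (0.0351) and without S3 or S6 (0.0463 and 0.0458). Over the alternative fits, 2 to 6 of the 46 genes were lower and 0 to 1 higher at an adjusted p under 0.05. *Mcm5* was at -0.30 ± 0.13 (SE) with an adjusted p of 0.164 (edgeR). For *Mcm6* and *Mcm7* the log2 fold changes were -0.14 and -0.07, and the 95% intervals of the fold were 0.760 to 1.08 and 0.811 to 1.11. Opposite-strand *Cops6* and *Ap4m1*, with 4948 and 2888 counts over the 8 samples against 11393 for *Mcm7*, overlap the exons of *Mcm7*. Whether the subunits differed from each other in fold change was not tested.

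*Gins2*, a subunit of the GINS complex that joins the helicase at the fork, was the lowest of the 46 in counts. It was at 14.4, 12.3, 10.7 and 13.5 CPM in WT and 8.32, 6.29, 9.24 and 9.37 CPM in KO, without overlap, with a log2 fold change of -0.61 ± 0.23 (SE, adjusted p = 0.102, edgeR). Exons of *Gse1*, a gene on the other strand with 16253 counts over the 8 samples against 1354 for *Gins2*, overlap it. The libraries were directional, but no source used here says whether counting used strand, so the origin of these counts is uncertain. *Pcna*, the sliding clamp of the DNA polymerases, had the most counts of this role and was at 220.3, 269.8, 226 and 257 CPM in WT and 189, 266, 252 and 241 CPM in KO. The groups overlapped, and the interval of its fold was 0.825 to 1.15. A *Pcna* pseudogene in the table held 5367 counts over the 8 samples against 30736 for *Pcna*, so some of its reads may be split. The licensing factors *Cdc6* and *Cdt1* were at -0.12 and 0.08 on the log2 fold change scale (adjusted p = 0.816 and 0.814, edgeR).

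Of the 4 genes for nucleotide synthesis, *Tk1* was the one that fell. *Tk1* (ENSMUSG00000025574.13, chr11:117815526-117826092) encodes thymidine kinase 1, the enzyme of the thymidine salvage pathway whose RNA rises in S phase. Its level was 36.7, 37.1, 46.2 and 47.5 CPM in S1 to S4 and 20.0, 25.6, 23.3 and 22.9 CPM in S5 to S8. The 4 KO samples lay close together, and the highest of them was well under the lowest WT sample. The level was 41.9 ± 5.78 CPM in the WT samples and 23.0 ± 2.27 CPM in the KO samples (SD, n = 4 each), a fold of 0.548 with a 95% interval of 0.438 to 0.686. The log2 fold change of -0.87 ± 0.15 (SE) had an adjusted p of 0.00118 (edgeR), and the exact two-sided permutation test on log2 CPM gave p = 0.0286, the smallest that 4 against 4 samples allow.

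The *Tk1* value kept its call in all 15 alternative fits, with log2 fold changes between -0.92 and -0.80. It kept it without S3, the sample with the most macrophage marker RNA. The remaining WT samples (493, 604 and 846 CPM of those markers) still lay above all KO samples (239 to 343 CPM). The part of those cells in the *Tk1* value was thus not tested. Exons of *Afmid*, on the other strand, overlap *Tk1*. *Afmid* was at 7.65, 7.34, 11.2 and 9.30 CPM in WT and 9.11, 6.37, 11.7 and 8.74 CPM in KO, a log2 fold change of 0.02 ± 0.27 (SE, adjusted p = 0.976, edgeR).

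The enzymes that make deoxynucleotides anew did not pass either threshold. *Rrm1*, the large subunit of ribonucleotide reductase, was at 76.1, 84.3, 72.9 and 94.2 CPM in WT and 55.1, 91.4, 71.5 and 71.6 CPM in KO. S5 was low, S6 was among the highest of the 8, and the groups overlapped (log2 fold change -0.18 ± 0.14, SE). *Rrm2*, the small subunit that is made in S phase, and *Tyms*, thymidylate synthase, had log2 fold changes of 0.08 and 0.16, with 95% intervals of the fold of 0.834 to 1.33 and 0.849 to 1.47. The 3 intervals did not reach the *Tk1* fold of 0.548, although the difference between the genes was not tested.

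**Figure D2:**
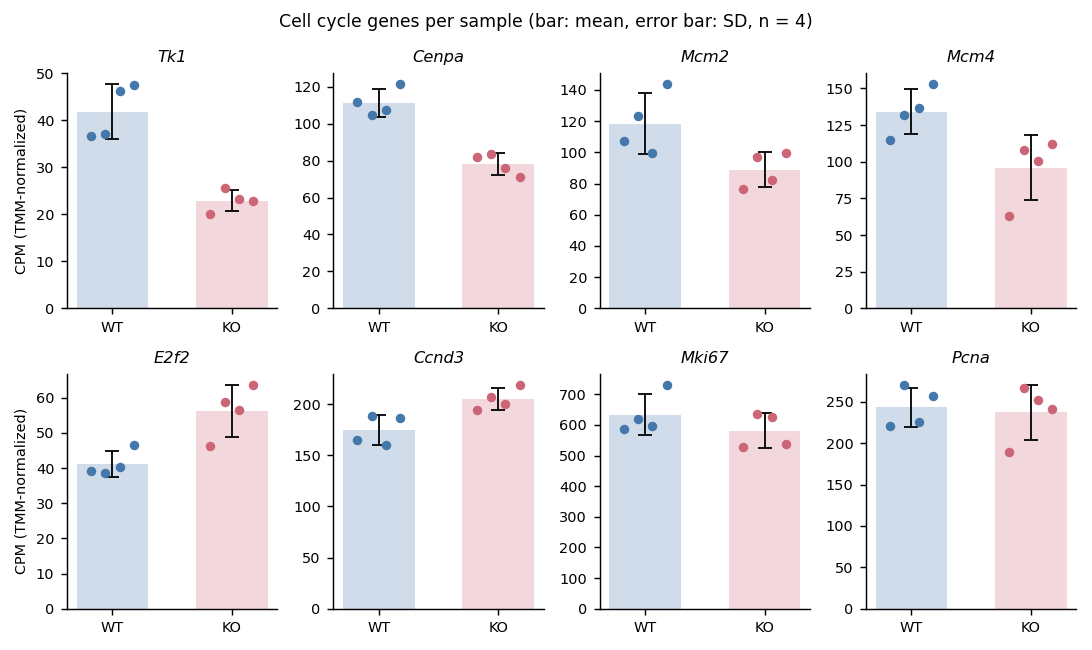
TMM-normalized CPM of 8 cell cycle genes in each WT and KO sample (points), with group means (bars from 0) and SD (error bars, n = 4). The KO points of *Tk1* (20.0 to 25.6 CPM) and *Cenpa* (71.1 to 83.5 CPM) lie below all WT points, whereas *Mki67* and *Pcna* overlap between the groups.

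*Mki67*, which encodes the proliferation antigen Ki-67, did not pass either threshold. It was at 585, 619, 596 and 731 CPM in WT and 528, 634, 626 and 538 CPM in KO, so 2 KO samples lay above 3 of the WT samples. The means were 633 ± 66.9 CPM (SD, n = 4) and 582 ± 56.3 CPM (SD, n = 4), and the 95% interval of the fold was 0.793 to 1.06. The adjusted p was 0.508 (edgeR), and 0.393 to 0.866 when single samples were left out.

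All 6 genes of the S/G2/M cyclins, CDK1 and chromosome-wide proteins had log2 fold changes below 0, beside 51.4% of all genes tested. They ran from -0.48 (*Cdk1*) to -0.12 (*Mki67*), and none passed either threshold. Their sums overlapped, at 976, 1104, 1003 and 1298 CPM in WT and 849, 1026, 1015 and 908 CPM in KO. S4 was the highest and S5 the lowest. *Top2a*, the topoisomerase that untangles sister chromatids, was at 292, 356, 295 and 420.2 CPM in WT and 243, 291, 283 and 275 CPM in KO. The highest KO sample, S6, lay just under the lowest WT sample, S1, and the log2 fold change was -0.32 ± 0.12 (SE, adjusted p = 0.0916, edgeR). Without S4 the adjusted p was 0.306, and without S1 it was 0.0488. *Ccna2* (cyclin A2), *Ccnb1* and *Ccnb2* (B-type cyclins) had log2 fold changes of -0.40, -0.21 and -0.27. Opposite-strand *Exosc9* overlaps *Ccna2*, and a *Ccnb1* pseudogene in the table held 485 counts over the 8 samples against 1927 for *Ccnb1*, so reads could be shared between these pairs.

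The mitotic kinases and their partners did not pass either threshold. *Tpx2*, the activator of Aurora A and the gene of this role with the most counts, was at 23.6, 31.0, 26.8 and 38.9 CPM in WT and 23.6, 28.6, 28.9 and 24.7 CPM in KO. The ranges overlapped, with S4 the highest. *Aurka*, *Plk1*, *Aurkb* and *Birc5* (survivin, a partner of Aurora B) had log2 fold changes of 0.11, -0.11, -0.00 and 0.00, and their SE of 0.18 to 0.25 covers 0.

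The spindle checkpoint kinases *Bub1* and *Bub1b* were at -0.36 and -0.38 on the log2 fold change scale (adjusted p = 0.314 and 0.215, edgeR). *Cdc20*, the activator of the anaphase-promoting complex, was at 22.4, 29.9, 18.4 and 36.6 CPM in WT and 9.24, 17.8, 22.2 and 24.9 CPM in KO. S5 was the lowest of the 8 and the groups overlapped (log2 fold change -0.53 ± 0.27, SE, adjusted p = 0.242, edgeR). *Elovl1* on the other strand, with 5809 counts over the 8 samples against 2943 for *Cdc20*, overlaps its exons. *Ube2c*, the ubiquitin-conjugating enzyme of the same complex, was at 0.05 ± 0.25 (log2 fold change ± SE).

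Of the 5 kinesin and spindle genes, 3 had a log2 fold change above 0, beside 7479 of all 15378 genes tested, and none passed either threshold. *Kif2c*, *Kif23* and *Kif20a*, motors of the kinetochore and the midzone, had log2 fold changes of 0.40, 0.33 and 0.14 with SE of 0.25, 0.17 and 0.20. Opposite-strand *Cdc23* overlaps *Kif20a* and held 3934 counts over the 8 samples against 4169. *Kif11*, the motor that separates spindle poles, was at 53.1, 59.9, 50.6 and 74.7 CPM in WT and 45.3, 85.6, 54.0 and 51.8 CPM in KO. Its spread in KO came from S6, and the log2 fold change was -0.01. *Hmmr*, a spindle protein, was at -0.05 ± 0.22 (log2 fold change ± SE).

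Of the centromere and kinetochore genes, *Cenpa* fell. *Cenpa* (ENSMUSG00000029177.9, chr5:30666777-30674830) encodes the histone H3 variant that marks centromeres. It was at 112, 104, 107 and 121 CPM in S1 to S4 and 82.1, 83.5, 75.7 and 71.1 CPM in S5 to S8. Both groups were tight and did not overlap, with 111 ± 7.37 CPM in the WT samples and 78.1 ± 5.81 CPM in the KO samples (SD, n = 4 each). The log2 fold change was -0.51 ± 0.10 (SE), a fold of 0.703 with a 95% interval of 0.604 to 0.818 (adjusted p = 0.00355, edgeR). The adjusted p passed the stricter rule and the fold, under 1.5, did not. The exact two-sided permutation p was 0.0286, and the adjusted p stayed under 0.05 in all 15 alternative fits, with 0.0158 as the highest, without S4.

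The other 4 kinetochore genes did not pass either threshold. *Cenpe*, a kinetochore motor, and *Cenpf* had log2 fold changes of 0.07 ± 0.14 and 0.17 ± 0.13 (SE), and *Ndc80* and *Nuf2*, partners in the complex that holds microtubules, of -0.10 and -0.11. With *Tk1*, *Cenpa*, *Mcm2*, *Mcm4*, *Gins2* and *Top2a*, 6 of the 46 genes had all KO samples below all WT samples, a pattern held by 8.28% of all genes tested, and the other 39 genes overlapped.

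Per length of exon, *Pcna* had the highest level of the 46 in both groups, at 101 ± 9.94 RPKM (SD, n = 4) in WT and 98.8 ± 13.9 RPKM (SD, n = 4) in KO, where RPKM is CPM per kilobase of exon. *Mki67* at 62.9 ± 6.65 RPKM and *Ccnd2* at 62.2 ± 4.35 RPKM (SD, n = 4) followed in WT and did not differ beyond their spread. *Top2a* (37.8 RPKM) and *Mcm4* (37.4 RPKM) came next in WT and were likewise level. *Nuf2*, at 2.00 RPKM in WT and 1.86 RPKM in KO, was the lowest. Within the level order, *Tk1* was at 8.06 ± 1.11 RPKM in WT and 4.42 ± 0.436 RPKM (SD, n = 4) in KO.

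Single samples stood out within each group. In WT, S4 held the highest value for 30 of the 46 genes, whereas it was the highest WT sample for 25.6% of all genes tested. In KO, S5 held the lowest value for 29 genes and S6 the highest for 28, beside 28.6% and 25.3% of all genes tested. Summed over the 46 genes, the level was 3472, 3883, 3472 and 4309 CPM in WT and 3061, 3809, 3555 and 3470.0 CPM in KO. The lowest and the highest sums were those of S5 and S4, and the other 6 samples, 3 of each group, lay between 3470.0 and 3883 CPM. The group means were 3784 ± 400.1 CPM (SD, n = 4) and 3474 ± 311 CPM (SD, n = 4). The lowest WT value was that of S1 for 20 of the 46 genes and that of S3 for 19, beside 28.2% and 26.2% of all genes tested. These were the WT samples with the lowest (493 CPM) and the highest (1517 CPM) sum of macrophage markers. The part of these sample differences in the fold changes was not tested beyond leaving out single samples.

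**Figure D3:**
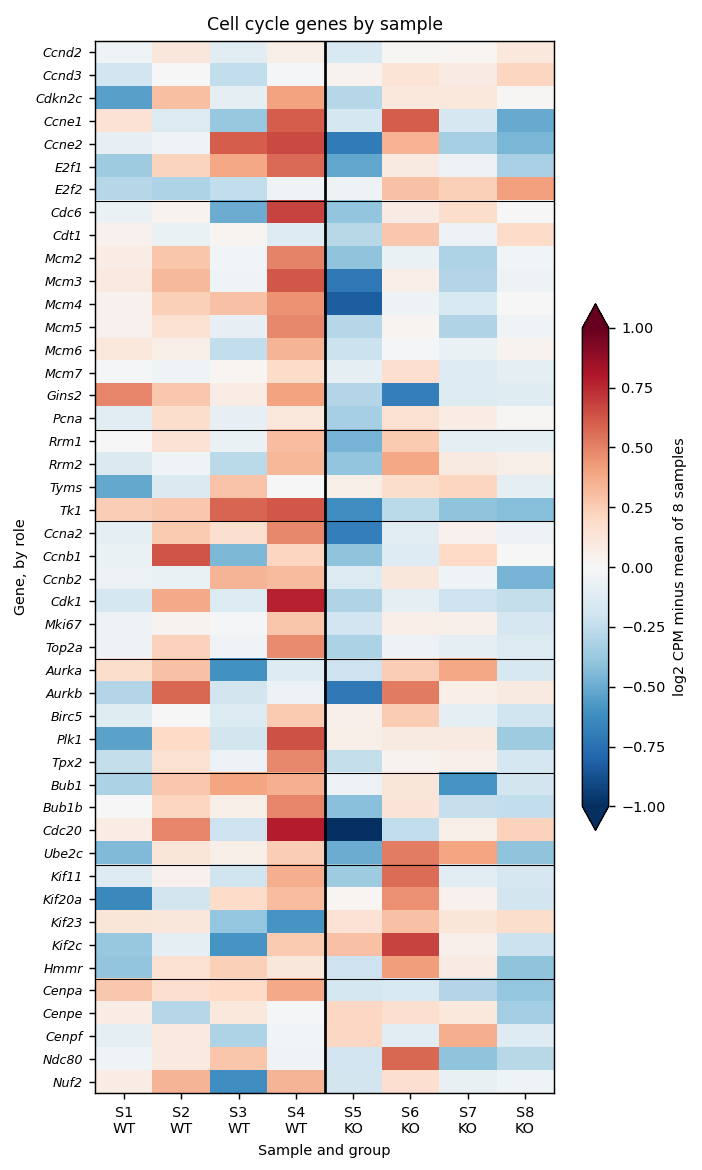
Log2 CPM of the 46 cell cycle genes (rows, by role) in the 8 samples (columns, WT left and KO right of the line), each minus the mean of its 8 samples, with red above and blue below the mean. The S4 column is mostly red and the S5 column mostly blue, and S6 is red across the kinesins.

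To place these genes in the wider cycle, 137 further cell cycle genes (CDK inhibitors, G1 kinases and pocket proteins, transcription factors, replication, mitosis and antiproliferative genes) were read from the same fit. Of the 136 tested, none was called higher and 3 were called lower, *Cdk6*, *Rpa2* and *Ccnd1*, beside 2.91% and 1.99% of all genes tested. The median log2 fold change was -0.05, and 82 (60.3%) lay below 0, beside 51.4% of all genes tested. At an adjusted p under 0.05, *Prc1* was higher and *Smc4*, *Cdk6*, *Rpa2* and *Ccnd1* were lower, beside 6.31% and 4.98%. Replication genes had a median of -0.21 (31 of 40 below 0) and mitosis genes a median of -0.02 (30 of 54 below 0).

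*Cdk6*, a kinase partner of the D-type cyclins, was at 592, 612, 538 and 540.1 CPM in WT and 347, 261, 282 and 311 CPM in KO. All KO samples were far under the WT samples, and the log2 fold change was -0.92 ± 0.10 (SE, adjusted p = 1.31e-05, edgeR). *Cdk4*, the other partner, was at 70.4, 65.7, 69.0 and 83.3 CPM in WT and 52.7, 58.4, 56.7 and 59.8 CPM in KO, with a log2 fold change of -0.34 ± 0.12 (SE, adjusted p = 0.0699, edgeR). Its groups did not overlap, but it did not pass either threshold. *Rpa2*, a subunit of the protein that coats single-stranded DNA, was at 66.0, 59.9, 47.7 and 57.1 CPM in WT and 32.8, 25.4, 32.0 and 37.4 CPM in KO, a log2 fold change of -0.85 ± 0.15 (SE, adjusted p = 0.00113, edgeR).

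*Ccnd1*, cyclin D1, was at 8.0, 11.6, 24.7 and 6.75 CPM in WT and 0, 3.31, 0.50 and 1.02 CPM in KO, a log2 fold change of -3.43 ± 0.71 (SE, adjusted p = 0.00408, edgeR). Its highest sample was S3, which was also the highest in macrophage markers (1517 CPM). S4, the next highest in those markers (846 CPM), had the lowest *Ccnd1* level of the WT samples. The part of those cells in the *Ccnd1* value was not tested. A count of 0 in S5 allows up to 0.197 CPM. *Ccnd1* was no longer called without S2, S3, S7 or S8 or with DESeq2, and without S3 the log2 fold change was -2.89 with an adjusted p of 0.0281 (edgeR). Opposite-strand *LTO1*, with 2261 counts over the 8 samples against 812 for *Ccnd1*, overlaps its exons. The *Cdk6* and *Rpa2* calls were kept in all 15 alternative fits.

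The CDK inhibitors did not pass either threshold. *Cdkn1a* (p21) was at 68.4, 74.9, 75.6 and 74.7 CPM in WT and 73.6, 108, 85.6 and 88.8 CPM in KO, with 3 KO samples above all WT samples and an adjusted p of 0.165 (edgeR). *Cdkn1b* (p27) had a log2 fold change of -0.11 ± 0.10 (SE). *Cdkn2a* was near the lower end of the genes tested, at 1.39 ± 0.890 CPM in the WT samples and 1.58 ± 0.882 CPM in the KO samples (SD, n = 4 each). *Foxm1* and *Mybl2*, transcription factors of the late cycle, were at -0.03 ± 0.14 and -0.02 ± 0.29 (log2 fold change ± SE), *Rb1* at 0.13 ± 0.14 and the antiproliferative gene *Btg1* at -0.00 ± 0.10.

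**Figure D4:**
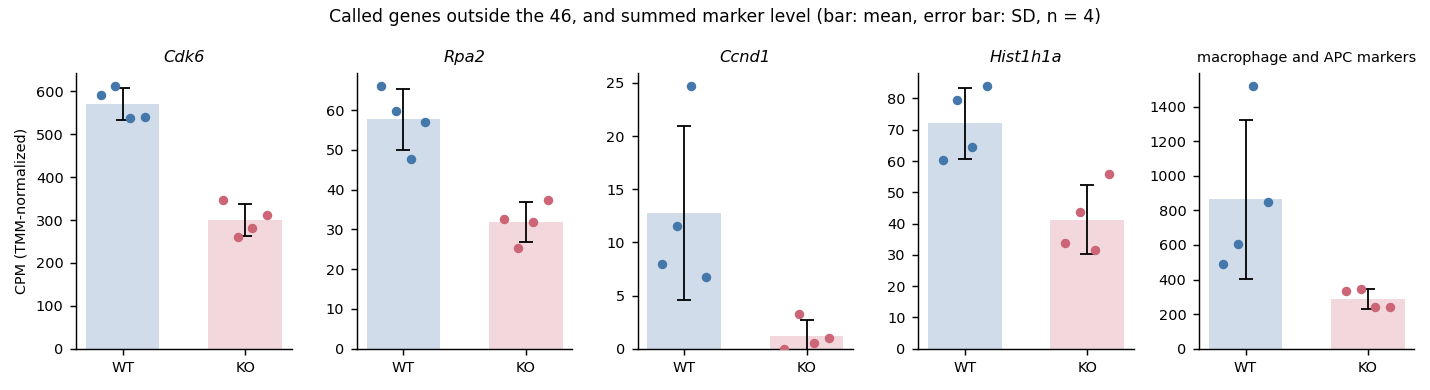
TMM-normalized CPM per sample (points), with group means (bars from 0) and SD (error bars, n = 4), of the 4 called genes outside the 46 and of the summed macrophage and antigen-presenting cell (APC) markers. *Cdk6*, *Rpa2* and *Hist1h1a* separate the groups, and the highest *Ccnd1* and marker points both belong to S3. The next highest marker point belongs to S4, which has the lowest WT *Ccnd1* point.

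Replication-dependent histone genes, whose RNA is made in S phase and is mostly not polyadenylated, can be read here because the libraries were made by depletion of ribosomal RNA. The genes were taken by histone gene symbol alone, not by known replication dependence, and include *Hist3h2bb-ps*, a pseudogene by its symbol. Of the 70 genes taken 59 were tested, and 1, *Hist1h1a*, a linker histone, was called lower and none higher, beside 1.99% and 2.91% of all genes tested. *Hist1h1a* was at 60.2, 79.6, 64.5 and 83.9 CPM in WT and 33.7, 43.8, 31.6 and 55.7 CPM in KO, a log2 fold change of -0.80 ± 0.17 (SE, adjusted p = 0.00554, edgeR). The groups did not overlap, and the call was lost without S2, S4, S5, S6 or S7, with adjusted p values up to 0.0268 (edgeR). The median of the 59 genes was -0.26 and 50 (84.7%) lay below 0, beside 51.4% of all genes tested. Near-identical copies in the histone clusters can share reads, so single histone values are uncertain. Summed histone RNA was 2044, 3409, 2016 and 3228 CPM in WT and 1749, 2156, 2452 and 2856 CPM in KO, so that S2, S4 and S8 were high and S1, S3 and S5 low, across the groups.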

How the data were processed

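Poly(A)-independent RNA-seq libraries of 8 samples were read as raw counts per gene. Per the labels, the authors used STAR on GRCm38 (mm10) and counted reads with featureCounts, and the deposited counts are neither normalized nor pooled. The strand setting is not given in the sources used here. The study's own test was DESeq2 with a GC correction. The columns of the count table are numbered only. The key of the study's principal component plot gave the group of each column, not the replicate.

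Low counts were removed with filterByExpr, leaving 15378 genes, and groups were compared with edgeR 4.0.16 (R 4.3.3): TMM factors, glmQLFit and glmQLFTest, no covariates, Benjamini-Hochberg adjustment over all genes tested. A gene was called at over 1.5-fold with an adjusted p below 0.01. The SE was the size of the log2 fold change divided by the root of F. Single values were tested by exact two-sided permutation over 70 arrangements on log2 CPM (prior count 2). Alternatives were other scaling factors, filters, DESeq2 1.42.0, GC content offsets (mgcv 1.9.3), an adjusted p under 0.05 and leaving out each sample. The fit was tested on simulated data. With 11657807 to 30295406 counts per sample, 3 counts were 0.105 to 0.250 CPM, for counting error only. That samples of a group came from different mice is stated. As WT samples pooled 2 mice and KO samples held 1, p-values cover the spread between WT pools and between single KO mice. They do not cover the spread between single WT mice.

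Exon lengths and coordinates came from GENCODE M21, which matched 55154 of 55335 gene IDs. The members and lists were chosen with earlier results of these data known. Values in every sample were given for genes called at either rule, the gene with the most counts in each role, *Mki67*, genes without overlap, called genes of the wider list and 10 fixed genes of it.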

Additional observations from a re-analysis of the deposited data

Results flagged for a closer look

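Among the 92 sets of 4 samples formed by the 46 genes and both groups, 2 held a sample far from the other 3, by the gap to its nearest neighbor over the whole range on log2 CPM, beyond Dixon's 95% critical value. Chance gives about 1 in 20, or 4.6 sets. *Mcm7*, a helicase subunit, was high in S6, at 6.65 log2 CPM, where the remaining KO samples lay at 6.36 to 6.40, a ratio of 0.869. *Plk1*, a mitotic kinase, was low in S8, at 3.54 against 3.95 to 3.99, a ratio of 0.915. Neither gene passed a threshold between the groups.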

How the results depend on the processing

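Of the 46 genes, *Tk1* alone was called in any of the 15 alternative fits, and it was called in all of them. Members called lower numbered 1 and called higher 0 in every fit at that rule, also when single samples were left out (lowest and highest 1 and 1, and 0 and 0), and 4 lower and 1 higher with an adjusted p under 0.05 and no fold limit. Over all genes, that rule gave 971 higher and 766 lower, and lower genes numbered 531 without a filter and 461 with DESeq2, against 306. Leaving out single samples gave 347 to 452 higher and 199 to 303 lower genes. Of the wider list, 1 was higher at the looser rule, and leaving out single samples gave 0 to 1 higher (*Tob1*, without S5) and 2 to 3 lower, with *Klf2* called lower in place of *Ccnd1* without S8. For histones, 2 were called lower without a filter, and 0 to 2 lower and 0 to 0 higher when single samples were left out. Where *Hist1h1a* was lost without S4, S5, S6 or S7, *Hist1h4m* was called in its place, and without S2 none was.

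Of 690 member values over the alternatives, 647 kept their direction and side of the threshold and 43 changed sign, all for genes within 0.21 of 0 on the log2 scale. Without leaving out a sample these were *Aurkb* (0.0031 with DESeq2 size factors, 0.0045 with DESeq2, 0.028 with GC offsets) and *Birc5* (-0.017 with library size alone, -0.019 with upper quartile factors). In the wider list, *Foxm1* (0.0061) and *Mybl2* (0.0026) changed sign with GC offsets and *Btg1* with DESeq2 size factors (0.0029) and DESeq2 (0.0028). When single samples were left out, log2 fold changes that changed sign ranged from -0.043 to 0.23 for *Aurka*, -0.19 to 0.23 for *Aurkb*, -0.088 to 0.095 for *Birc5*, -0.36 to 0.0065 for *Ccnb1*, -0.047 to 0.041 for *Ccnd2*, -0.38 to 0.10 for *Ccne1*, -0.28 to 0.13 for *Cdc6*, -0.23 to 0.062 for *Cdkn2c*, -0.0040 to 0.17 for *Cdt1*, -0.0088 to 0.19 for *Cenpe*, -0.21 to 0.076 for *Hmmr*, -0.24 to 0.11 for *Kif11*, -0.017 to 0.28 for *Kif20a*, -0.37 to 0.0012 for *Ndc80*, -0.095 to 0.059 for *Pcna*, -0.28 to 0.12 for *Plk1*, -0.050 to 0.21 for *Rrm2*, -0.14 to 0.20 for *Ube2c*, -0.060 to 0.047 for *Btg1*, -0.16 to 0.59 for *Cdkn2a*, -0.074 to 0.030 for *Foxm1* and -0.15 to 0.19 for *Mybl2*. The cause was not tested. The scaling moved the median of all genes by less than 0.1 on the log2 scale. No paired analysis was possible because the columns carry no replicate number.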
